A study of Mus musculus with 24 samples.

Results

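The genes described here are NRF2 (Nfe2l2), the proteins that control it and its antioxidant targets, 34 mouse genes chosen by symbol for their place in this pathway and followed through lipopolysaccharide (LPS) stimulation of macrophages with and without Irg1. The list was chosen with earlier results of these data known. Its shares set beside those of all genes are therefore not from an independent list. All 34 genes were found among the 22165 genes of the count table, and 33 held enough reads to be tested. They fall into 6 groups by function: regulators (5 genes), glutathione (9), thioredoxin and peroxide (6), NADPH supply (5), haem (3), and quinone and other detoxifying reactions (6).

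NRF2 is a transcription factor that KEAP1 hands to a ubiquitin ligase in resting cells, so that it is degraded about as fast as it is made. When reactive molecules modify cysteines of KEAP1, or when SQSTM1 (p62) sequesters it, NRF2 escapes, pairs with a small MAF protein such as MAFG and binds antioxidant response elements, which BACH1 otherwise occupies. Its targets make and recycle glutathione and thioredoxin, supply NADPH for both, degrade haem and detoxify quinones. Irg1 (Acod1) encodes the enzyme with which macrophages make itaconate after LPS. Derivatives of itaconate are known to modify KEAP1, which does not by itself show that the itaconate of the cell does so.

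Bone marrow-derived macrophages (BMDMs) were grown for 7 days in M-CSF at 20 ng/ml from WT C57BL/6N mice, bought from a supplier, and from Irg1-/- C57BL/6N mice, all 8 to 20 weeks old by the labels. Cells of each genotype were left without LPS (Unstim.), given LPS at 100 ng/ml for 24 h (LPS 24h), or given LPS for 24 h, rested for 1 h in fresh medium and given LPS again for 3 h (LPS 24h->LPS 3h). The LPS 3h cells went through those same steps with a mock period in place of the first LPS, so that 3 h was their only exposure. Each of the 8 groups held 3 cultures, which made 24 libraries. The knockout cells lacked Irg1 in every condition, and the WT mice were not littermates of the knockout mice.

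Levels are counts per 1000000 reads on genes (CPM) after TMM scaling. The reads come from the poly(A) end of transcripts, so a level can be compared between libraries but not between genes. The libraries held 3927378 to 20430359 reads on genes, and the shallowest were replicates 2 and 1 of the unstimulated Irg1-/- cells. Acod1 separated the genotypes after LPS, with 3794 to 28060 CPM in the 9 WT libraries and at most 26.4 CPM in the 9 Irg1-/- libraries. All 6 macrophage markers were present (summed level 2998 to 9645 CPM). The lowest of these sums belonged to WT LPS 24h replicate 3, which also had the highest share of reads on no feature (33.7%). Lists for B cells, T cells, erythroid cells and mast cells stayed at or under 2.45 CPM. The dendritic cell list (4 genes) reached at most 9.99 CPM. At LPS 3h it lay apart between genotypes, at 4.76 to 7.42 CPM in Irg1-/- cells and 1.64 to 3.18 CPM in WT, and at LPS 24h it was at most 0.297 CPM. The neutrophil list (6 genes, with Mpo, Elane and Ly6g at no more than 3.25 CPM) ranged from 349.8 to 625 CPM at Unstim. and LPS 3h and from 64.2 to 225 CPM at both late times, in both genotypes. The fibroblast list (4 genes) ranged from 261 to 430 CPM early and from 103 to 245 CPM late. The part of these lists in the results given below was not tested, and in bulk RNA fewer cells of a type cannot be told apart from less RNA per cell.

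Antioxidant response elements have the core TGACNNNGC, which reads GCNNNGTCA on the other strand. RefSeq (GRCm38.p6) gave a promoter window, from 250 bases before to 50 after the start, for 28 of the 34 genes, and 11 of the 28 (39.3%) held the core on either strand, against 14.0% of 27025 genes with a window. The stretches shown are a choice from these genes. Prdx1, Txnrd1, Nfe2l2 and Ugdh were called in some comparison below, and Gclm, a target that passed no test here, is set beside them. The cores of Srxn1, Pgd, Me1, Mafg, G6pdx and Pir are not shown. Capitals mark the core, and each stretch runs 5′ to 3′ on the strand of its gene.
Prdx1 (chr4:116685446-116685494, + strand): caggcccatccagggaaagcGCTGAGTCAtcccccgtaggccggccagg
Txnrd1 (chr10:82859094-82859142, + strand): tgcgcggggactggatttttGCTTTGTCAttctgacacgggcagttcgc
Nfe2l2 (chr2:75704875-75704913, - strand): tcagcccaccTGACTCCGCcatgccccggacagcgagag
Ugdh (chr5:65435908-65435994, - strand): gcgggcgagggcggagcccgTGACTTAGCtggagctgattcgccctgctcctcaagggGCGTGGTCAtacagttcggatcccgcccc
Gclm (chr3:122245403-122245451, + strand): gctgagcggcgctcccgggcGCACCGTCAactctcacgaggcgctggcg

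The core of Prdx1 lay 133 bases before the start and that of Txnrd1 92 bases before it. In Prdx1 the core overlapped TGACTCA, the sequence that AP-1 factors bind. Ugdh held the core at 2 places, 132 and 94 bases before its start. The windows of Slc7a11 and Sqstm1 held no core, and those of Hmox1, Gclc, Gsr, Abcc1, Prdx6 and Slc48a1 were not analysed here. A match of letters is a description and not a binding site.

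Among the 4 conditions, members passed the test between genotypes only at LPS 24h, where Slc7a11, Sqstm1 and Prdx1 were lower in Irg1-/- cells. Throughout, a gene is said to rise, fall or be called when edgeR's quasi-likelihood test gave a Benjamini-Hochberg adjusted p under 0.05 over all 11878 genes tested. At LPS 24h 3 of 33 members were called, against 0.598% of all genes. The calls came from the regulators, the glutathione genes and the thioredoxin and peroxide genes, 1 in each.

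Slc7a11 (ENSMUSG00000027737.10, chromosome 3, 49892526 to 50443614, GRCm38) encodes the cystine importer that feeds glutathione synthesis. At LPS 24h its levels were 134, 122 and 205 CPM in WT replicates 1 to 3 and 58.6, 48.4 and 53.9 CPM in the Irg1-/- replicates. Every knockout library lay below every WT library. The log2 fold change of Irg1-/- over WT was -1.52 (SE 0.31, adjusted p = 0.0203), a level 2.87-fold lower.

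Sqstm1 (ENSMUSG00000015837.15, chromosome 11, 50199366 to 50210827) encodes p62, the autophagy receptor that binds KEAP1. Its levels were 1403, 554 and 976 CPM in WT and 395, 288 and 382 CPM in Irg1-/- cells. WT replicate 2 was the lowest of its group and still above the 3 knockout libraries. The log2 fold change was -1.46 (SE 0.33, adjusted p = 0.0292).

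Prdx1 (ENSMUSG00000028691.12, chromosome 4, 116685544 to 116700822) encodes a peroxiredoxin that reduces hydrogen peroxide. Its levels were 12110, 11370 and 9263 CPM in WT and 4859, 4212 and 2840 CPM in Irg1-/- cells, again without overlap. The log2 fold change was -1.46 (SE 0.32, adjusted p = 0.0274). Over the 3 LPS conditions together Prdx1 was the 1 member called, against 0.337% of all genes, with a log2 fold change of -0.85 (SE 0.18, adjusted p = 0.0257). Of the 50-base windows at the end of its transcripts 21.2% also occur in other genes, so part of its reads may not have been placed.

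**Figure D1:**
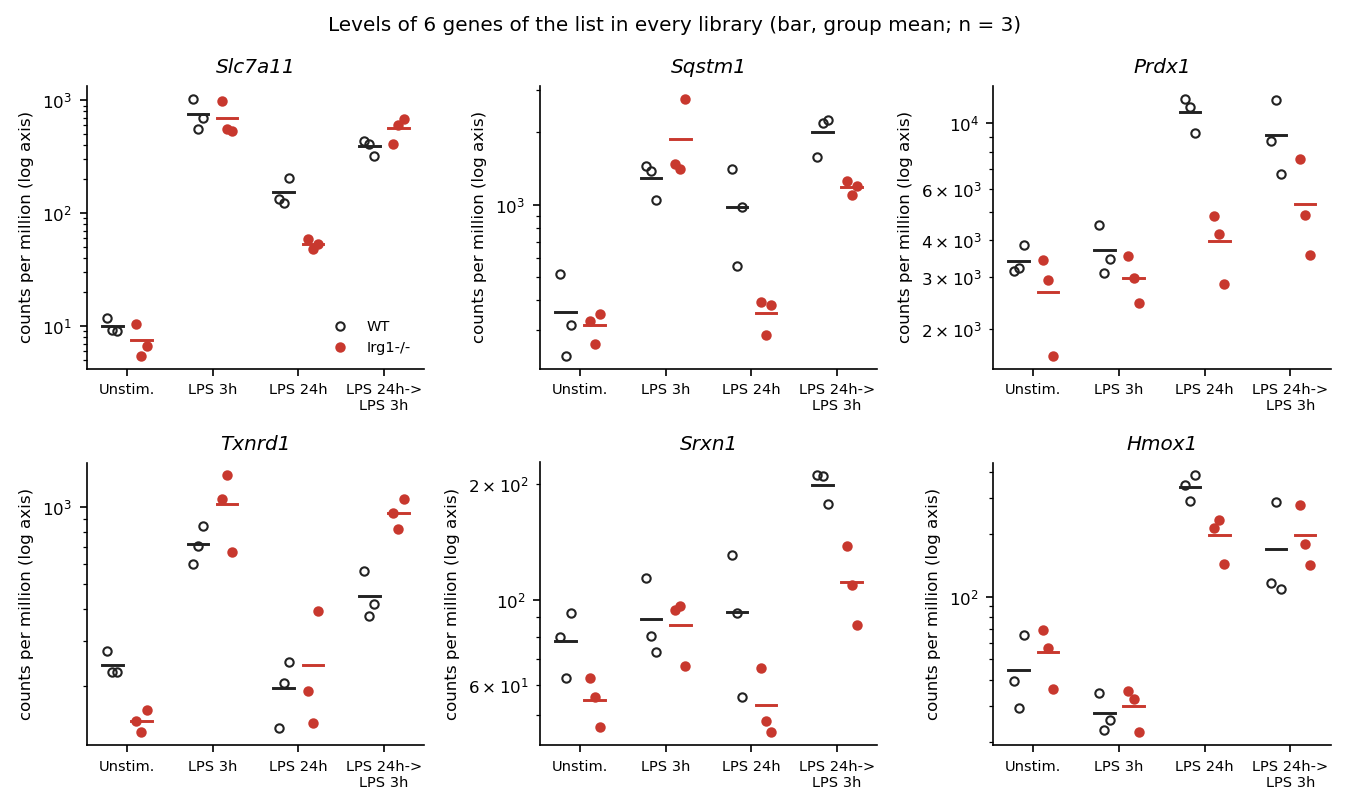
Levels (CPM, log axis) of 6 genes in every library, by condition on the x axis, with open points for WT, filled points for Irg1-/- and a bar at each mean of 3 libraries. At LPS 24h the 3 knockout libraries of Slc7a11 (48.4 to 58.6 CPM), Sqstm1 and Prdx1 lie below all WT libraries, and at LPS 3h the genotypes overlap for these 3 genes.

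All 3 differences kept their sign within 1 library pool, while none of the calls held in each of 13 alternative settings (7 changes of method, 6 libraries left out in turn). The labels carry a prefix that was read as the pool of a library, and pool 1 held 1 WT and all 3 Irg1-/- libraries of LPS 24h. Within it the log2 difference was -1.32 for Slc7a11, -1.995 for Sqstm1 and -1.64 for Prdx1. With only the LPS 24h libraries in the fit, none of the 3 was called (adjusted p of 0.238, 0.253 and 0.238 in that order). With the pool as a term, Slc7a11 alone was called, with adjusted p of 0.0808 for Sqstm1 and 0.0765 for Prdx1. Slc7a11 was not called without WT replicate 3 or any 1 of the Irg1-/- replicates (adjusted p up to 0.176). Prdx1 was not called without WT replicate 2 or 3 or any Irg1-/- replicate (up to 0.222), nor Sqstm1 without WT replicate 1 or 3 or any Irg1-/- replicate (up to 0.220). Over the 3 LPS conditions Prdx1 was not called in 9 of the 18 fits that left out a library, those without WT LPS 3h replicate 1, WT LPS 24h replicate 2, WT restimulated replicate 2, or replicate 2 or 3 of any Irg1-/- group given LPS (adjusted p up to 0.0966), nor with the pool as a term (0.161).

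Across the 33 members at LPS 24h, 25 had a log2 fold change below 0, against 50.7% of all genes. The median was -0.41, against -0.01 over all genes. Within pool 1, with 1 WT library, it was -0.52. For 7 members the knockout libraries lay wholly below the WT libraries, as did 8.99% of all genes, and for 0 members wholly above (7.51% of all genes). Beside the 3 called genes these were Gsr (glutathione reductase), Taldo1 (transaldolase of the pentose phosphate pathway), Hmox1 (haem oxygenase 1) and Ugdh (UDP-glucose dehydrogenase). Gsr had levels of 266, 327 and 418 CPM in WT and 176, 198 and 147 CPM in Irg1-/- cells, with a log2 fold change of -0.96 (SE 0.31, adjusted p = 0.177).

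Before LPS no member was called, against 0.0421% of all genes, and the smallest adjusted p was 0.863. At Unstim. 24 of 33 members lay below 0 (48.7% of all genes), with a median of -0.15 (0.01 over all genes). At LPS 3h the median was -0.16 (-0.02 over all genes), and 0 members were called, against 0.00842% of all genes. Pool 2 alone held both genotypes at LPS 3h, with 1 library of each. Within it 6 of 33 members lay below 0, with a median of 0.19, the opposite sign. The other knockout libraries of LPS 3h were in pool 3, which held no other library of either genotype. With the pool as a term, every knockout LPS 3h value here and below therefore rests on replicate 1 alone. At LPS 24h->LPS 3h the median was -0.26 (-0.03 over all genes), and 0 members were called, against 0.118% of all genes. Within pools 1 and 2 the median there was -0.36 and -0.14. DESeq2's Wald test also called 0 members in these 3 conditions.

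After restimulation 4 members were wholly higher and 5 wholly lower in the knockout, against 6.45% and 6.42% of all genes. Txnrd1, cytosolic thioredoxin reductase, had 561, 374 and 419.7 CPM in WT and 944, 819 and 1069 CPM in Irg1-/- cells (log2 fold change 1.06, SE 0.32, adjusted p = 0.228). Sqstm1 lay the other way, with 1579, 2178 and 2258 CPM in WT and 1248, 1101 and 1192 CPM in Irg1-/- cells (log2 fold change -0.76, SE 0.33, adjusted p = 0.522). Neither gene overlapped between genotypes, and neither passed the threshold.

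**Figure D2:**
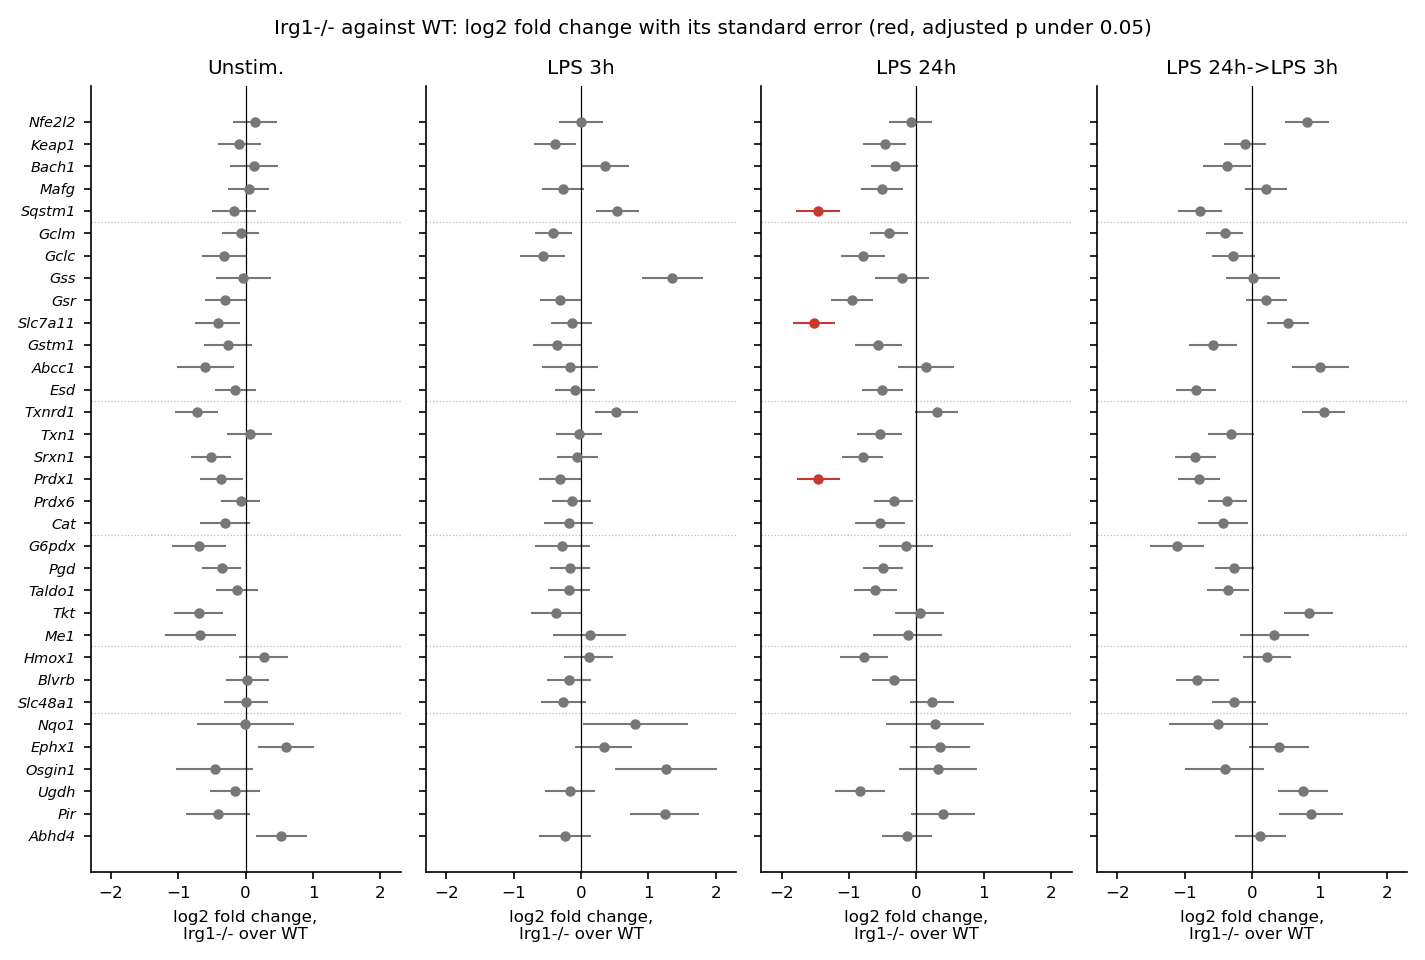
Log2 fold change of Irg1-/- over WT (x axis) with its standard error for the 33 tested members (y axis, dotted lines between function groups) in the 4 conditions, with called members in red. Red points occur at LPS 24h alone, for Sqstm1, Slc7a11 and Prdx1, where 25 of the 33 points lie below 0.

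The regulators other than Sqstm1 were not called between genotypes in any condition. Nfe2l2 had 148, 368 and 216 CPM in WT and 222, 153 and 316 CPM in Irg1-/- cells at LPS 24h, with overlap (log2 fold change -0.09, SE 0.32, adjusted p = 0.975). After restimulation its levels were 301, 342 and 423 CPM in WT and 580.2, 707 and 589.5 CPM in Irg1-/- cells. The 3 knockout libraries were the higher there (log2 fold change 0.82, SE 0.32, adjusted p = 0.462). Keap1, Bach1 and Mafg overlapped between genotypes in all 4 conditions, with log2 fold changes from -0.51 (Mafg, LPS 24h) to 0.36 (Bach1, LPS 3h).

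**Figure D3:**
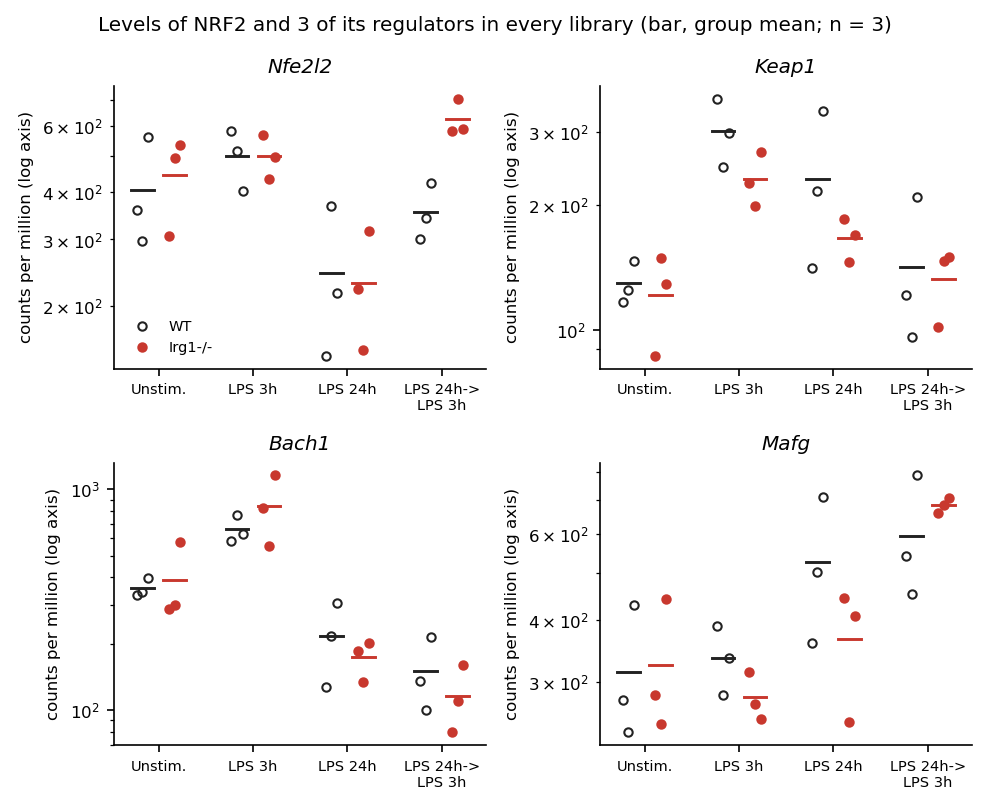
Levels (CPM, log axis) of Nfe2l2, Keap1, Bach1 and Mafg in every library, by condition on the x axis, with open points for WT, filled points for Irg1-/- and a bar at each mean of 3 libraries. Bach1 has 553 to 1158 CPM at LPS 3h and 79.7 to 216 CPM after restimulation, and Nfe2l2 at LPS 24h->LPS 3h is higher in all Irg1-/- libraries.

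At LPS 3h Slc7a11, Txnrd1, Txn1 and Sqstm1 were higher and Osgin1 lower than at Unstim. in both genotypes. The LPS 3h cells also had 1 h of rest in fresh medium, and no group had that rest without LPS after it. The LPS cannot be told apart from these steps. In WT cells 6 members rose and 5 fell, against 15.8% and 16.3% of all genes, and in Irg1-/- cells 8 rose and 5 fell, against 17% and 18.9%. These shares of 33 members were near the background. The median member change was -0.08 in WT and -0.10 in Irg1-/- cells (-0.18 and -0.20 over all genes). Both genotypes called 8 members in the same direction, 72.7% of the WT calls and 61.5% of the Irg1-/- calls. Such overlaps were not computed over all genes, here or below, and are no result about these members.

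Slc7a11 went from 11.8, 9.16 and 9.07 CPM to 1033, 556 and 704 CPM in WT cells. The knockout levels went from 10.4, 5.47 and 6.64 CPM to 985, 564 and 535 CPM. Every stimulated library was far above every unstimulated one. The log2 fold change was 6.25 (SE 0.39, adjusted p = 3.31e-14) in WT, or 76.2-fold, and 6.53 (SE 0.40, adjusted p = 2.96e-14) in Irg1-/- cells, or 92.5-fold.

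Sqstm1 went from 516, 236 and 317 to 1447, 1380 and 1048 CPM in WT (log2 fold change 1.86, SE 0.33, adjusted p = 4.95e-05). Its knockout levels went from 329, 264 and 353 to 1477, 1402 and 2752 CPM, with replicate 3 above the others (log2 fold change 2.57, SE 0.34, adjusted p = 4.30e-07). Neither genotype overlapped between the times. Txnrd1 went from 275, 227 and 227 to 597, 701 and 843 CPM in WT (log2 fold change 1.55, SE 0.33, adjusted p = 0.000345). In the knockout it went from 147, 132 and 161 to 1074, 1327 and 669 CPM (log2 fold change 2.80, SE 0.34, adjusted p = 7.95e-08). Txn1, thioredoxin itself, had log2 fold changes of 1.38 (SE 0.34) in WT and 1.29 (SE 0.34) in the knockout, where the call was lost with the pool as a term (log2 fold change 0.47, adjusted p = 0.554).

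Osgin1, which encodes an oxidative stress-induced growth inhibitor, fell most. It went from 16.8, 14.6 and 18.4 CPM to 1.09, 1.19 and 0 CPM in WT (log2 fold change -4.45, SE 0.72, adjusted p = 1.12e-05) and from 16.1, 12.6 and 7.82 CPM to 1.44, 1.27 and 2.81 CPM in Irg1-/- cells (-2.73, SE 0.66, adjusted p = 0.00145). The times did not overlap in either genotype, and the low levels rest on few reads. Keap1 rose from 116, 125 and 146 to 361, 247 and 299 CPM in WT (log2 fold change 1.23, SE 0.32, adjusted p = 0.00321). Gss, glutathione synthetase, fell from 4.77, 6.21 and 5.75 to 2.37, 1.42 and 1.32 CPM in WT (log2 fold change -1.72, SE 0.44, adjusted p = 0.00299). Abhd4, a lipase of N-acyl phospholipids, fell by 1.55 (SE 0.39) on the log2 scale in Irg1-/- cells. The WT calls of Keap1, Sqstm1, Txnrd1, Gss, Slc7a11, Txn1 and Osgin1 held in all 13 alternative settings, as did the Irg1-/- calls of Sqstm1, Txnrd1, Slc7a11, Abhd4 and Osgin1.

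The remaining WT calls at LPS 3h were lost in 1 or more settings. Esd, S-formylglutathione hydrolase (log2 fold change 0.83, SE 0.30), was not called without LPS replicate 1 or any Unstim. replicate (adjusted p up to 0.0817), without a filter on low counts (0.0539) or with the pool as a term (log2 fold change 0.44, adjusted p = 0.287). Cat, catalase (-1.11, SE 0.37), was not called without LPS replicate 2 or 3 or Unstim. replicate 3 (up to 0.0942). Pir, pirin (-1.71, SE 0.51), was not called without Unstim. replicate 1 (0.149), and G6pdx, glucose-6-phosphate dehydrogenase (-1.34, SE 0.41), not without LPS replicate 2 (0.0691).

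The same held for 7 of the knockout calls. Keap1 (log2 fold change 0.93, SE 0.32) was not called without LPS replicate 3 or Unstim. replicate 1 (adjusted p up to 0.104), and Esd (0.89, SE 0.30) not without LPS replicate 1 or Unstim. replicate 3 (up to 0.0665). With the pool as a term Esd had a log2 fold change of 0.49 (adjusted p = 0.487). Abcc1, an exporter of glutathione conjugates (1.32, SE 0.42), was not called without LPS replicate 1 or Unstim. replicate 2 or 3 (up to 0.137), and Bach1 (1.12, SE 0.35) not without LPS replicate 3 or Unstim. replicate 1 or 2 (up to 0.0937). Cat (-0.99, SE 0.37) was not called without LPS replicate 2 or 3 or Unstim. replicate 1 or 2 (up to 0.192) or with the pool as a term (log2 fold change -1.59, adjusted p = 0.0542). Slc48a1, a haem transporter (-0.98, SE 0.33), was not called without any LPS replicate or Unstim. replicate 1 (up to 0.148), and Gclc, the catalytic subunit of glutamate-cysteine ligase (-0.94, SE 0.33), not without any LPS replicate or Unstim. replicate 1 or 3 (up to 0.160). Gclc had a log2 fold change of -0.018 with the pool as a term (adjusted p = 0.992).

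The difference between the genotypes' responses over the first 3 h passed the test for 0 of 33 members, against 0.00842% of all genes, and for 0 by DESeq2's Wald test. The knockout LPS and Unstim. libraries share no pool, so pool and LPS cannot be told apart in that genotype.

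By 24 h of LPS Hmox1, Prdx6 and Slc7a11 were higher and Ephx1 and Cat lower than before LPS in both genotypes. In WT 9 members rose and 2 fell, against 9.25% and 6.98% of all genes, and in the knockout 4 rose and 4 fell, against 7.31% and 6.38%. The median member change was 0.25 in WT and 0.18 in Irg1-/- cells (0.00 over all genes in both). The 5 shared calls were 45.5% of the WT calls and 62.5% of the Irg1-/- calls, shares not computed over all genes. Both times are set against the same unstimulated libraries. The knockout LPS 24h libraries were all in pool 1 and the knockout Unstim. libraries all in pool 4. Pool and LPS cannot be told apart in that genotype, and the fit with the pool as a term takes the pool effect from other groups.

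Hmox1 opens haem and frees its iron. Its levels were 39.5, 29.3 and 65.2 CPM at Unstim. and 345, 289 and 384 CPM at LPS 24h in WT (log2 fold change 2.92, SE 0.38, adjusted p = 7.40e-07). The knockout had 69.5, 56.7 and 36.0 CPM at Unstim. and 213, 235 and 144 CPM at LPS 24h (1.87, SE 0.37, adjusted p = 0.000416). Each LPS library lay above each unstimulated one in both genotypes. At LPS 3h Hmox1 stood at 22.3 to 35.3 CPM over both genotypes and was not called.

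Slc7a11 was still above its unstimulated level at 24 h, with a log2 fold change of 3.94 (SE 0.35) in WT and 2.84 (SE 0.34) in Irg1-/- cells. Ephx1, microsomal epoxide hydrolase, went the other way. It fell from 15.3, 15.5 and 20.5 to 3.41, 1.79 and 1.62 CPM in WT (log2 fold change -2.92, SE 0.46, adjusted p = 1.37e-05) and from 30.1, 34.7 and 13.7 to 2.77, 3.65 and 2.21 CPM in Irg1-/- cells (-3.18, SE 0.45, adjusted p = 3.37e-06), without overlap. The LPS 24h levels of Ephx1 rest on 17 to 52 reads in each library. Cat fell by 1.58 (SE 0.38) on the log2 scale in the knockout.

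Prdx1 rose from 3139, 3233 and 3865 CPM to 12110, 11370 and 9263 CPM in WT (log2 fold change 1.68, SE 0.32, adjusted p = 0.000244). The knockout had 3429, 2931 and 1622 CPM at Unstim. and 4859, 4212 and 2840 CPM at LPS 24h, and was not called (0.58, SE 0.31, adjusted p = 0.259). Sqstm1 rose in WT, with a log2 fold change of 1.46 (SE 0.33), while the knockout had 264 to 353 CPM before and 288 to 395 CPM after LPS. Gsr rose in WT, with a log2 fold change of 1.34 (SE 0.31). Knockout Gsr went from 139.5, 99.9 and 85.4 to 176, 198 and 147 CPM, without overlap, and was not called. The difference of the responses, Irg1-/- minus WT, was -1.29 (SE 0.46) for Sqstm1, -1.10 (SE 0.45) for Slc7a11 and -1.10 (SE 0.45) for Prdx1. It passed the test for 0 of 33 members, against 0.21% of all genes, and for 0 by DESeq2's Wald test. Under the 7 changes of method the adjusted p ran from 0.222 to 0.534 for these 3 genes, which were picked out after their values were seen.

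In WT the calls of Hmox1, Sqstm1, Prdx6, Slc7a11, Prdx1, Gsr and Ephx1 held in all 13 alternative settings, and in the knockout those of Hmox1, Cat, Slc7a11 and Ephx1. Prdx6, a peroxiredoxin that draws on glutathione, had log2 fold changes of 1.64 (SE 0.30) in WT and 1.38 (SE 0.30) in the knockout, where the pool term took the call away (adjusted p = 0.0782). Without WT LPS 24h replicate 3, the library with the fewest macrophage marker reads, Ugdh (1.50, SE 0.38) and Cat (-1.34, SE 0.37) were not called, with adjusted p of 0.0882 and 0.0598. Ugdh had 216 CPM in that library and 94.8 and 109 CPM in the other WT LPS 24h libraries, against 46.1 to 55.9 CPM at Unstim. Knockout Ugdh had 37.8 to 48.6 CPM at Unstim. and 76.6 to 79.1 CPM at LPS 24h, without overlap, and was not called. Esd (1.17, SE 0.30) was not called without WT LPS 24h replicate 1 (adjusted p = 0.0547), and Txn1 (1.13, SE 0.34) not without LPS replicate 1 or 2 or any Unstim. replicate (up to 0.124). In the fit with the pool as a term, Esd had a log2 fold change of 0.71 (adjusted p = 0.151) and Txn1 one of 0.53 (0.362).

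Among the knockout calls at 24 h, Nfe2l2 (-0.95, SE 0.33) was not called without LPS replicate 1 or 2 or Unstim. replicate 2 or 3 (adjusted p up to 0.238). Bach1 (-1.16, SE 0.35) was not called without LPS replicate 1 or 2 or Unstim. replicate 3 (up to 0.228), and Slc48a1 (1.14, SE 0.33) not without LPS replicate 1 or 2 or Unstim. replicate 2 or 3 (up to 0.0826). All 3 were lost with the pool as a term, with log2 fold changes of -0.90 for Nfe2l2 (adjusted p = 0.232), -0.63 for Bach1 (0.462) and 0.097 for Slc48a1 (0.911). Nfe2l2 was also lost with only the compared groups (0.0901) and with TMM without the 20 top genes (0.0598).

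Slc7a11, Txnrd1 and Srxn1 were higher after a second LPS stimulus than at LPS 24h in both genotypes, and no member was lower by the test. The restimulated cells also had fresh medium and 1 h of rest before the 3 h of LPS. No group had these steps without LPS after them, so the second LPS cannot be told apart from them or from the added time. Against LPS 24h, 3 members rose and 0 fell in WT, against 2.46% and 1.53% of all genes, and 5 rose and 0 fell in the knockout, against 3.44% and 1.7%. The knockout calls added Sqstm1 and Nfe2l2. The median member change was -0.06 in WT and 0.19 in Irg1-/- cells (-0.03 and -0.07 over all genes). The LPS 24h libraries are those used above against Unstim.

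Slc7a11 went from 134, 122 and 205 to 439, 413 and 324 CPM in WT, without overlap (log2 fold change 1.35, SE 0.31, adjusted p = 0.00915). The knockout went from 58.6, 48.4 and 53.9 to 409, 608 and 686 CPM, also without overlap (3.40, SE 0.34, adjusted p = 2.26e-08). The knockout libraries lay below the WT libraries before the second stimulus and overlapped with them after it.

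The difference of these responses was 2.06 (SE 0.44) for Slc7a11, a 4.16-fold larger rise in Irg1-/- cells, and missed the threshold (adjusted p = 0.0838), as did all 33 members, against 0.00842% of all genes called. Slc7a11 was singled out after its values were seen. It was called by DESeq2's Wald test, without a filter on low counts and with the pool as a term, and also without WT LPS 24h replicate 1 or 2. Its log2 value stayed between 1.78 and 2.27 with any 1 library left out, and the adjusted p between 0.0304 and 0.393. The WT groups hold 1 library each in pools 1, 2 and 4, and the log2 rise within these pools was 1.70, 1.75 and 0.66. The knockout rise within pool 1 was 3.58.

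Txnrd1 rose from 138, 206 and 249 to 561, 374 and 419.7 CPM in WT (log2 fold change 1.19, SE 0.32, adjusted p = 0.0298) and from 191, 144 and 394 to 944, 819 and 1069 CPM in the knockout (1.96, SE 0.33, adjusted p = 0.00016), without overlap in either. Srxn1, sulfiredoxin, which repairs over-oxidised peroxiredoxins, rose from 131, 92.1 and 55.9 to 211, 209.5 and 178 CPM in WT and from 66.5, 48.4 and 45.2 to 138, 109.6 and 86.1 CPM in the knockout. Its log2 fold changes were 1.10 (SE 0.30, adjusted p = 0.0314) and 1.06 (SE 0.30, adjusted p = 0.0319). Sqstm1 rose in the knockout, from 395, 288 and 382 to 1248, 1101 and 1192 CPM (log2 fold change 1.73, SE 0.33, adjusted p = 0.000898). In WT it went from 1403, 554 and 976 to 1579, 2178 and 2258 CPM, also without overlap, and was not called.

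Nfe2l2 rose in the knockout from 222, 153 and 316 CPM to 580.2, 707 and 589.5 CPM, with no overlap (log2 fold change 1.44, SE 0.33, adjusted p = 0.00545). In WT it had 148 to 368 CPM before and 301 to 423 CPM after, with overlap. The difference of the responses was 0.90 (SE 0.46, adjusted p = 0.601).

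The Irg1-/- calls of Sqstm1, Txnrd1 and Slc7a11 held in all 13 alternative settings, and none of the WT calls did. In WT Slc7a11 was not called without LPS 24h replicate 2 (adjusted p = 0.0706), and 0 members were. Txnrd1 was not called without LPS 24h replicate 1 or 2 or restimulated replicate 1 or 3 (up to 0.127), nor Srxn1 without LPS 24h replicate 2 or 3 or restimulated replicate 1 or 2 (up to 0.142). With only the compared groups the 3 WT calls were lost as well (adjusted p of 0.110, 0.177 and 0.236 in that order). Knockout Nfe2l2 was not called without LPS 24h replicate 2 (0.0639), and Srxn1 not without LPS 24h replicate 2 or 3 or restimulated replicate 1 or 2 (up to 0.133).

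Cells given LPS for 3 h after 24 h of LPS were also compared with cells given LPS for 3 h alone. Hmox1 and Slc48a1 of the haem genes were higher, and Bach1 and Ephx1 lower, in restimulated cells of both genotypes. In WT 10 members were higher and 4 lower, against 12.4% and 13.1% of all genes, and in the knockout 9 were higher and 2 lower, against 13.1% and 14.1%. The median member difference was 0.55 in WT and 0.33 in Irg1-/- cells (0.13 and 0.12 over all genes). Both genotypes called Hmox1, Bach1, Prdx6, Prdx1, Ephx1, Mafg and Slc48a1. These were 50% of the WT calls and 63.6% of the Irg1-/- calls, shares not computed over all genes. These groups also enter the comparisons above, and whether the differences differed between genotypes was not tested.

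Bach1, the repressor of Hmox1 among other targets, had 585, 765 and 628 CPM after 3 h alone and 136, 100.0 and 216 CPM in restimulated WT cells (log2 fold change -2.13, SE 0.36, adjusted p = 5.26e-05). The knockout had 825, 553 and 1158 CPM after 3 h alone and 79.7, 109.8 and 160.4 CPM when restimulated (-2.86, SE 0.37, adjusted p = 8.91e-07). The groups were far apart in both genotypes. Hmox1 had 34.6, 23.0 and 25.7 CPM and 117, 285 and 109 CPM in the same order in WT (2.62, SE 0.38, adjusted p = 5.63e-06), and 35.3, 32.1 and 22.3 against 276, 179 and 142 CPM in the knockout (2.73, SE 0.38, adjusted p = 2.58e-06). Before the second LPS, at LPS 24h, Hmox1 stood at 289 to 384 CPM in WT and 144 to 235 CPM in the knockout. Bach1 stood there at 128 to 307 CPM and 135 to 201.5 CPM. Against LPS 24h, Hmox1 was lower in restimulated WT cells, without overlap and without a call, and overlapped in the knockout. Slc48a1, which moves haem out of the lysosome, had log2 fold changes of 1.75 (SE 0.34) in WT and 1.75 (SE 0.34) in the knockout. Ephx1 had -2.36 (SE 0.46) and -2.29 (SE 0.44) on the same scale.

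Slc7a11 was lower in restimulated WT cells than after 3 h alone, by a log2 fold change of -0.96 (SE 0.31, adjusted p = 0.0208), and was not called without LPS 3h replicate 1 or restimulated replicate 3 (up to 0.118). The knockout values were 535 to 985 CPM after 3 h alone and 409 to 686 CPM when restimulated, with overlap. Gss (log2 fold change 2.17, SE 0.45) and Osgin1 (3.09, SE 0.71) were higher in WT, from levels of at most 2.37 CPM and 1.19 CPM after 3 h alone. Srxn1 (1.16, SE 0.30), Prdx6 (1.21, SE 0.29) and Prdx1 (1.31, SE 0.32) were also higher in WT. With Hmox1, Bach1, Ephx1 and Slc48a1 these made the 9 WT calls that held in all 13 settings, while in the knockout Hmox1, Bach1, Ephx1 and Slc48a1 held. The knockout groups of this comparison share pool 2 alone, with 1 library of each, so pool and treatment are partly confounded there. Within pool 2 the knockout log2 difference was 2.95 for Hmox1, -3.36 for Bach1, -1.90 for Ephx1 and 1.79 for Slc48a1.

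The other calls of this comparison depended on the setting. Mafg in WT (0.82, SE 0.31) lost the call in 6 of 7 changes of method and without any library but restimulated replicate 2 (adjusted p up to 0.288). Prdx1 in the knockout (0.83, SE 0.32) lost it in 6 of 7 changes of method (up to 0.340, with the pool as a term) and without any library but restimulated replicate 3 (up to 0.344). G6pdx in WT (1.34, SE 0.41) was not called without LPS 3h replicate 2 or 3 or restimulated replicate 1, and without the last its log2 fold change was 0.59 (adjusted p = 0.299). Keap1 in WT (-1.09, SE 0.32) was not called without LPS 3h replicate 1 or restimulated replicate 1 or 2 (up to 0.0768), nor Esd (1.01, SE 0.30) without LPS 3h replicate 3 or restimulated replicate 1 (up to 0.0731).

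Knockout Ugdh (1.20, SE 0.37) rested on restimulated replicate 3, which had 258 CPM where the others had 65.6 and 67.7 CPM. Without it the log2 fold change was 0.21 (adjusted p = 0.669), and the call was also lost without LPS 3h replicate 2. Gsr (1.07, SE 0.31) was not called without restimulated replicate 1, where its log2 fold change was 0.65 (adjusted p = 0.150). Gclc (1.08, SE 0.33) was not called without restimulated replicate 3 or LPS 3h replicate 2 (up to 0.0950), and Prdx6 (0.99, SE 0.29) not without restimulated replicate 1 or LPS 3h replicate 2 (up to 0.0790). Abhd4 (1.24, SE 0.38) was not called without restimulated replicate 2 or LPS 3h replicate 2 or 3 (up to 0.0787). With the pool as a term Ugdh (0.79, adjusted p = 0.436), Gclc (0.78, 0.297), Prdx6 (1.03, 0.130) and Abhd4 (0.84, 0.365) were lost too. Ugdh was also lost with only the compared groups (0.0568). Mafg (1.30, SE 0.31) lost the call only with the pool as a term (adjusted p = 0.145).

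**Figure D4:**
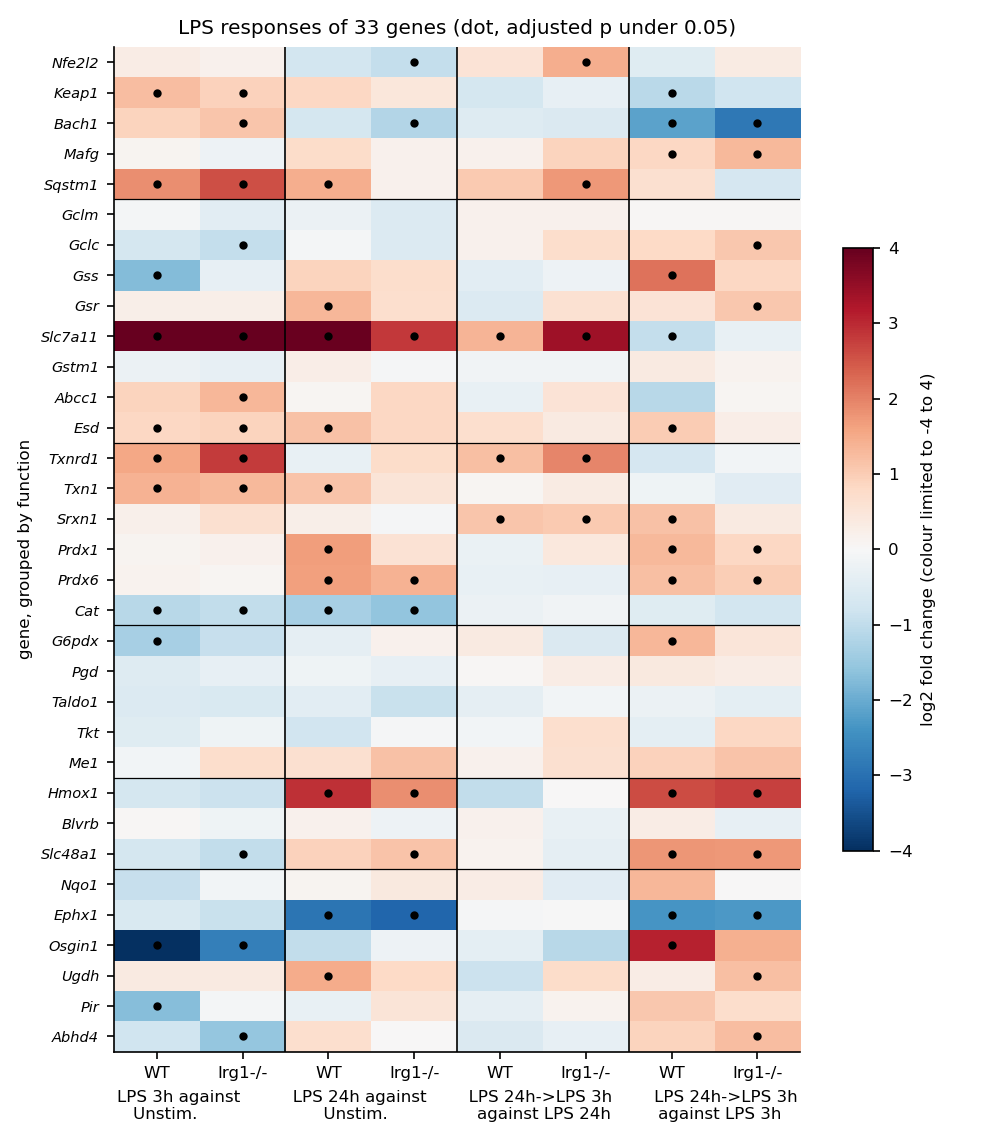
Log2 fold changes (colour, limited to -4 to 4) of the 33 tested members (rows, by function group) in the 4 LPS comparisons (column pairs, WT then Irg1-/-), with a dot where the adjusted p was under 0.05. Slc7a11 is the most raised gene at LPS 3h, at 6.25 and 6.53, and Hmox1, Bach1 and Ephx1 are called in both genotypes in the last column pair.

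Of the 33 tested members, 8 passed the test in none of the 16 comparisons. They were Gclm (the modifier subunit of glutamate-cysteine ligase), Gstm1 (a glutathione transferase), Pgd, Taldo1, Tkt and Me1 of the 5 NADPH genes, Blvrb (biliverdin reductase B) and Nqo1. Gclm ranged from 486 to 1189 CPM in all 24 libraries. Nqo1, the quinone reductase often used as a readout of NRF2, held at most 4.63 CPM in any library, and its log2 fold changes had wide errors (SE 0.73 between genotypes at LPS 24h).

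Gstp1, a glutathione transferase, was listed at 0 in all 24 libraries. Of the 50-base windows in the last 500 bases of its transcripts 78.0% also occur in Gstp2 or a Gstp pseudogene, and the others do not. Reads that aligned to more than 1 place were not counted on a gene. Whether this gave the 0 was not tested, and the 0 is not read as absence of its RNA. Smaller shares of such windows were found for Gstm1 (23.0%), Esd (16.8%), Ugdh (12.1%) and G6pdx (10.4%). The strand setting of the counting is not given in the sources used here, so reads of genes on the opposite strand, such as Mrnip at Sqstm1, cannot be set apart.

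Beyond the members, 109 other genes of the same pathways were followed, of which 99 were tested. In the genotype comparisons and the differences of responses 0 of the 99 were called by edgeR's quasi-likelihood test. DESeq2's Wald test called Akr1a1 and Txnip, both lower in the knockout, at LPS 24h, Akr1a1 and Mafk, both lower, over the 3 LPS conditions, and Flvcr1 for the difference of the second responses. After LPS for 3 h 11 rose and 20 fell in WT, and 13 rose and 29 fell in the knockout, where 15.8% and 16.3% of all genes did so in WT and 17% and 18.9% in the knockout. Among them Maff, a small MAF partner of NRF2, had a log2 fold change of 5.80 (SE 0.42) in WT, and Sod2, the mitochondrial superoxide dismutase, 4.63 (SE 0.38). Sesn1, a sestrin, had -5.36 (SE 0.72) in WT and -5.39 (SE 0.71) in the knockout. At LPS 24h 11 rose and 10 fell in WT, and 14 rose and 8 fell in the knockout (all genes, 9.25% and 6.98%, then 7.31% and 6.38%). Glrx, glutaredoxin, rose at 24 h, with 3.71 (SE 0.41) in WT and 3.94 (SE 0.42) in the knockout, and Gpx3, a secreted glutathione peroxidase, fell by 2.28 (SE 0.50) in WT, all on the log2 scale. Against LPS 24h Maff was higher in restimulated cells, by 2.13 (SE 0.36) in WT and 3.42 (SE 0.38) in the knockout. It was the 1 gene of these to rise (all genes, 2.46% and 3.44%). Those that fell were Sesn2 in WT, and Hmox2 and Flvcr1 in the knockout (all genes, 1.53% and 1.7%). Between restimulated cells and cells given LPS for 3 h alone, 16 were higher and 9 lower in WT, and 20 higher and 10 lower in the knockout (all genes, 12.4% and 13.1%, then 13.1% and 14.1%).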

How the data were processed

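RNA from WT and Irg1-/- BMDMs was read by oligo-dT-primed 3′-end sequencing, 3 independent cultures for each of 8 groups by the study's methods. The deposited table holds raw counts per gene, made by the authors from reads aligned with STAR to mm10 per the labels, while the counting program, annotation and strand setting are not given in the sources used here. The 5 summary lines (reads on no feature 22.1% to 33.7%, reads not placed uniquely 15.1% to 22.5% of each library) were kept out of library sizes. Gene names were taken from GENCODE M21, which matched 21745 of 22165 identifiers, and 6156 genes had no read.

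All 24 libraries were fitted together with edgeR 4.0.16 in R 4.3.3 (quasi-likelihood test, TMM factors, filterByExpr over 8 groups, 11878 genes, Benjamini-Hochberg adjustment, threshold 0.05), without pairing. SE is the log2 fold change divided by the root of F. The 16 comparisons were 4 between genotypes and their LPS mean, 8 LPS responses and 3 differences of responses. With 3 against 3 libraries an exact permutation test cannot go below p = 0.1. The calculations were checked on simulated counts. Alternatives were DESeq2 1.42.0 (size factors and the Wald test), no filter, only the compared groups, a replicate block, the library pool as a term, TMM after dropping the 20 most counted genes, and the omission of each library in turn. Within pools, log2(CPM + 0.5) was averaged.

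The members and gene lists were chosen with earlier results of these data known. Named are NRF2, Keap1, Bach1 and Mafg between genotypes, all called members and Acod1. Up to 3 other pathway genes, taken from those with the largest change, are named per comparison. None is named for restimulated cells against LPS 3h. Of these other pathway genes, those with a group at 0 counts are left out. Promoters were read from RefSeq (GRCm38.p6). Python 3.11.15 with pandas 2.3.3 and matplotlib 3.10.9 made summaries and plots.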

Additional observations from a re-analysis of the deposited data

How the results depend on the processing

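The number of members called moved by more than 1.5 times in 8 of 16 comparisons. At LPS 24h between genotypes 3 became 0 with only the compared groups and 1 with the pool as a term, and 0 to 2 with a library left out. Over the 3 LPS conditions 1 became 0 with the pool as a term and 0 to 1 with a library left out. For the second stimulus against LPS 24h in WT 3 became 0 with only the compared groups and 0 to 3 with a library left out, and in the knockout 5 became 3 to 5. With the pool as a term, 8 became 5 at LPS 24h against Unstim. and 11 became 5 for restimulated cells against LPS 3h in the knockout, and with a library left out 5 to 8 and 6 to 10. At LPS 3h against Unstim. in the knockout 13 became 8 to 12 with a library left out. The 0 members called for the difference of the second responses became 1 (Slc7a11) by DESeq2's Wald test, without a filter and with the pool as a term, and 0 to 1 with a library left out. The cause was not tested.

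Uncalled genotype differences changed sign. With the pool as a term the log2 value was 0.13 for Keap1 at LPS 24h->LPS 3h, 0.10 for Mafg at LPS 3h and 0.052 for Nfe2l2 at LPS 24h. Nfe2l2 at LPS 3h was 0.022 with DESeq2 size factors and with the Wald test, 0.025 with the pool term, 0.033 with only the compared groups and 0.0078 with TMM without the 20 top genes. With a library left out Nfe2l2 ran from -0.038 to 0.44 at Unstim., -0.12 to 0.13 at LPS 3h and -0.37 to 0.34 at LPS 24h. Keap1 ran from -0.27 to 0.10 at Unstim. and -0.31 to 0.33 at LPS 24h->LPS 3h, Mafg from -0.25 to 0.33 at Unstim., and Bach1 from -0.29 to 0.30 at Unstim., -0.61 to 0.048 at LPS 24h and -0.67 to 0.019 at LPS 24h->LPS 3h.

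Over all genes, 71 calls between genotypes at LPS 24h became 168 by the Wald test, 246 without a filter, 3 with only the compared groups and 12 with the pool as a term, and 9 to 165 with a library left out. For the second stimulus against LPS 24h 474 became 755, 749 and 109 in WT under the first 3 of these, and 611 became 1080 in the knockout with only the compared groups. The pool term turned 4260 into 2361 at LPS 3h and 3233 into 1407 for restimulated cells against LPS 3h in the knockout. At LPS 24h->LPS 3h 14 calls between genotypes became 101, 133, 4 and 6 under these 4 settings and 9 with TMM without the 20 top genes, and over the 3 LPS conditions 40 became 141 by the Wald test, 152 without a filter, 82 with the block and 7 with the pool. The other comparisons whose count moved had at most 25 calls. The medians over all genes moved by more than 0.1 for restimulated cells against LPS 3h in the knockout with DESeq2 size factors (-0.11).

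The replicate numbers were not taken to pair the samples, since not every same-numbered pair correlated over 0.1. Deviations of same-numbered libraries correlated from -0.11 to 0.29 (median 0.02, 48 pairs) between genotypes and from -0.10 to 0.34 (median 0.01, 36 pairs) within them, over 0.1 in 16 of 84 pairs against 13 of 168 of other pairs. Of 24 libraries 9 correlated best with their own number. Number 3 of both late groups of each genotype and of Unstim. Irg1-/- cells, 5 libraries chosen after the values were seen, correlated at 0.187 to 0.337 in all 10 pairs. The replicate block left 3 members called at LPS 24h between genotypes and moved no count of members by more than 1.5 times. Nqo1, Gss, Osgin1, Ephx1, Pir and Me1 rest on few reads in some groups, and Gstp1 on none.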

Other observations

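The phagocyte NADPH oxidase, which makes superoxide and consumes the NADPH that the antioxidant enzymes need, was followed through 6 subunits. None was called between genotypes by edgeR's quasi-likelihood test. Cybb, its catalytic subunit, had log2 fold changes of 2.26 (SE 0.28) in WT and 1.90 (SE 0.28) in Irg1-/- cells at LPS 3h, with mean levels of 3413 ± 136 CPM at Unstim. and 16360 ± 2154 CPM at LPS 3h in WT (SD, n = 3). At LPS 24h Cybb, Ncf4 and Rac2 were above Unstim. in both genotypes, and Rac2, a small GTPase of the complex, had log2 fold changes of 1.84 (SE 0.37) in WT and 1.78 (SE 0.37) in Irg1-/- cells.

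Ferritin heavy chain (Fth1), which stores the iron that haem oxygenase frees, rose with Hmox1 at LPS 24h, with log2 fold changes of 1.51 (SE 0.29) in WT and 1.91 (SE 0.30) in Irg1-/- cells. The ferritin light chain (Ftl1) had mean levels of 2432 CPM at Unstim. and 4084 CPM at LPS 24h in WT. In Irg1-/- cells its mean was 2956 CPM at Unstim. and 2707 CPM at LPS 24h, with no rise. Blvra, biliverdin reductase A, fell at LPS 3h in both genotypes, by 1.79 (SE 0.27) and 1.70 (SE 0.27) on the log2 scale. Flvcr1, a haem exporter, fell at LPS 3h by 1.37 (SE 0.34) in WT and 1.43 (SE 0.34) in Irg1-/- cells on the same scale. These genes were described after their values were seen.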
